A study of Mus musculus with 6 samples.

Results

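A set of 32 genes that encode the machinery of mitosis were followed in stellate cells cultured from mouse liver, the perisinusoidal cells that store retinoids and turn into collagen-producing myofibroblasts. The 32 symbols were listed by function, and all 32 were rows of the deposited table of 13341 genes. All 32 also passed the filter on low values, which kept 10540 genes with a normalized count of at least 10 in at least 3 libraries. Cells of wild type genotype (3 libraries) were compared with cells of Nbr1 knock-out genotype (3 libraries), and Nbr1 encodes a receptor of selective autophagy. Both groups came from mouse liver and grew for 4 days in DMEM with 10% serum under basal conditions. The labels do not give the age or sex of the mice, how the allele was made, or whether replicates came from separate animals, so p-values measure the spread between these libraries. By its title, the series asks about NBR1, p62 and STING signalling in liver cancer.

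A cell enters mitosis when Cdk1, bound first to cyclin A and then to cyclin B, phosphorylates many targets, while the Aurora and Polo kinases build the spindle and load the kinetochores. The spindle checkpoint holds the anaphase-promoting complex in check until every chromosome is attached. That complex then marks cyclin B and securin for destruction, and the cell divides. Messenger RNAs of these genes rise together late in the cell cycle and are low in resting cells. Quiescent stellate cells of normal liver divide little, and culture on plastic activates them and brings them into cycle.

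The libraries held between 1508518 and 2383879 recovered reads, and the 32 genes had between 347 and 10026 reads summed over the 3 libraries of a group. Nbr1 stood at 204.1, 278.0 and 288.7 normalized counts in wild-type libraries 1 to 3 and at 203.7, 188.2 and 175.6 in knock-out libraries 1 to 3, and it did not pass the test (limma, adjusted p = 0.22). A 3′ read does not check a deletion placed elsewhere in the gene. Sqstm1, the p62 gene, had 10.9 to 24.0 normalized counts under the wild-type label and 644.6 to 859.1 under the knock-out label (adjusted p = 0.000337), so each direction below rests on the labels. Over the tested genes, wild-type libraries 2 and 3 were close to each other (r = 0.984). Equally close were knock-out libraries 1 and 3 (r = 0.981). Wild-type library 1 stood further off, at 0.857 and 0.856 to its own group and at 0.875 and 0.888 to that pair of knock-out libraries. Knock-out library 2 stood between its own group (0.946 and 0.924) and wild-type libraries 2 and 3 (0.901 and 0.903).

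Most mitosis genes were at lower levels under the knock-out label. The fitted log2 change was below 0 for 25 of the 32 genes (78.1%, against 51.1% of all tested genes), with a median of -0.44 against -0.01 over all tested genes. In all, 4 genes fell (limma on log2(normalized count + 1), Benjamini-Hochberg adjusted p under 0.05), namely Cenpe, Ccna2, Ccnb2 and Nusap1, and 0 rose. That is 12.5% of the 32, where 2.25% of all tested genes were called lower and 4.67% higher (6.92% in either direction). For 11 of the 32 genes (34.4%) every knock-out value lay under every wild-type value, as it did for 13.6% of all tested genes. The reverse order held for 0 of the 32, against 16.5% of all tested genes, so in either direction the share of the 32 was near that of all tested genes (30.1%). An unadjusted p under 0.05 was reached by 11 genes, all of them lower, where 9.84% of tested genes were lower at that level and 22.6% reached it in either direction. In bulk RNA, fewer dividing cells and less of these messengers per dividing cell cannot be told apart.

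**Figure D1:**
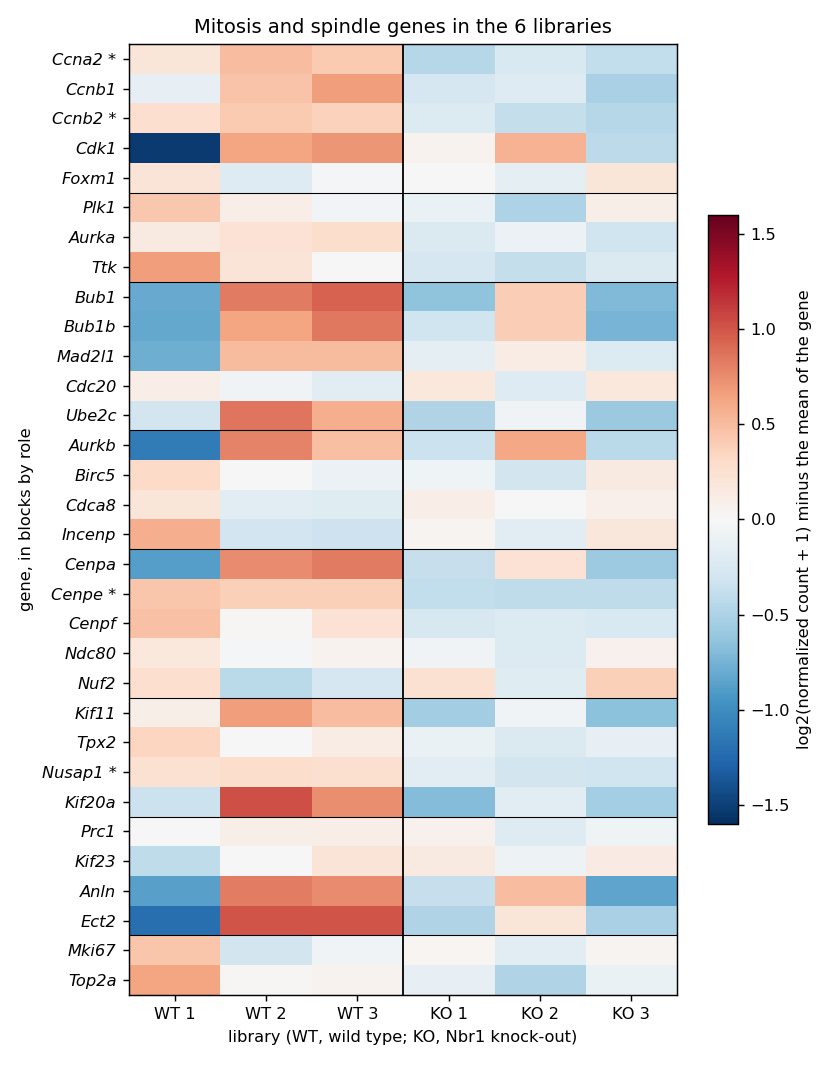
Level of each of the 32 genes in the 6 libraries, as log2(normalized count + 1) minus the mean of the gene over the libraries (red above, blue below). Rows are in blocks by role, an asterisk marks the 4 genes that passed the limma test, and Cdk1, Bub1, Aurkb, Cenpa, Anln and Ect2 are seen to be low in wild-type library 1.

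Summed over the 32 genes, the libraries fell into separate groups. The sum was 17546.8, 18458.9 and 18536.4 normalized counts in wild-type libraries 1 to 3. It was 13926.8, 13891.4 and 13799.0 in knock-out libraries 1 to 3. The groups did not overlap, and the knock-out mean was 76.3% of the wild-type mean (13872.4 ± 66.0 against 18180.7 ± 550.4, SD, n = 3 each). Without Top2a, the mean was 77.5% of wild type, from 13128.1, 15573.4 and 15560.2 in the wild-type label to 11330.6, 11841.6 and 11139.8 under the knock-out label. As a share of all recovered reads the 32 genes took 0.872%, 0.922% and 0.938% in the wild-type libraries and 0.718%, 0.710% and 0.705% in the knock-out libraries. The mitochondrial ribosomal RNAs, the mitochondrial genes among the rows, also differed without overlap, at 2.38%, 2.37% and 2.54% of reads in the wild-type libraries and 1.70%, 1.96% and 1.78% in the knock-out libraries. The part of that difference in the mitosis gene levels was not tested.

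Single genes were less even than the sum, and wild-type library 1 stood apart in many of them. In 10 of the 32 genes (31.2%) it lay more than 1 log2 unit under the mean of wild-type libraries 2 and 3, as in 17.0% of 9929 tested genes with an annotated coding transcript. These 10, named for this pattern after their values were seen, were Cdk1, Bub1, Bub1b, Mad2l1, Ube2c, Aurkb, Cenpa, Kif20a, Anln and Ect2. In all 10 knock-out library 2 lay above the mean of knock-out libraries 1 and 3, as it did in 94.5% of the genes with this pattern among the 9929. The groups overlapped in all 10, and in 92.5% of those genes. In 14 of the 32, among them Top2a, Mki67 and Incenp, wild-type library 1 was instead above the mean of the other wild-type libraries. The same held for 4968 of the 9929 genes.

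**Figure D2:**
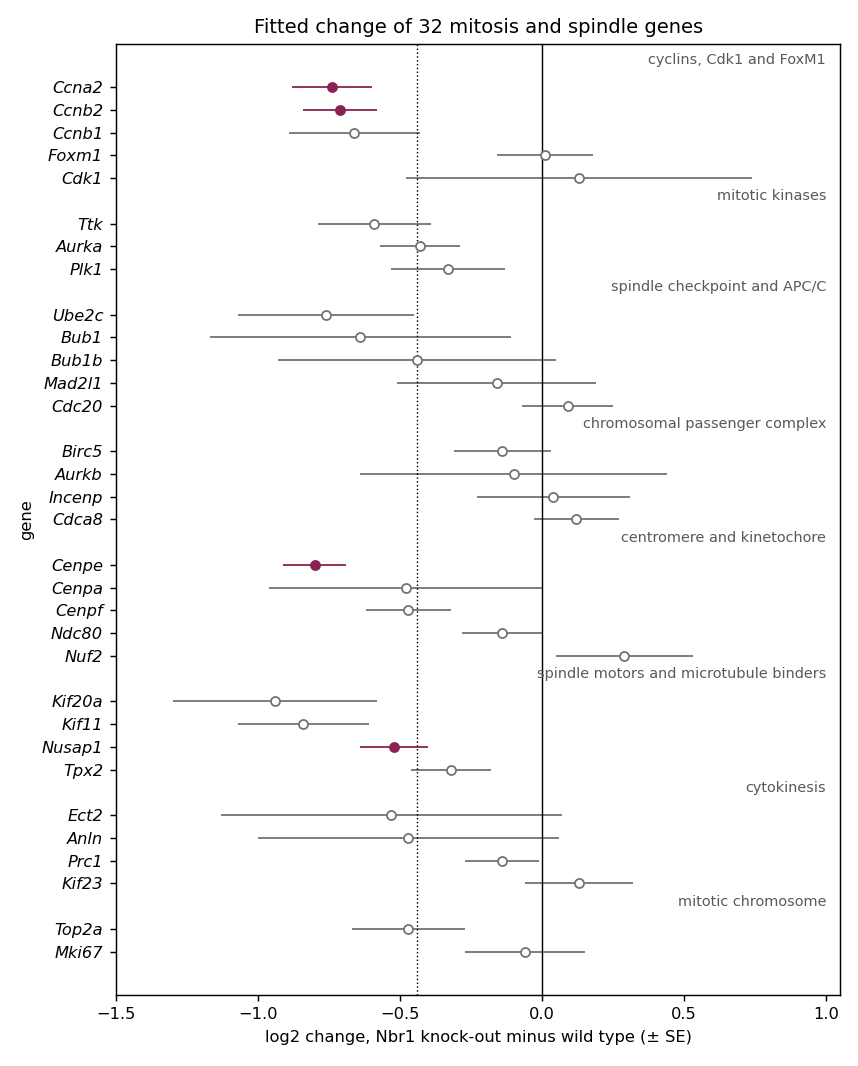
Fitted log2 change (knock-out minus wild type, ± SE) of each gene, in blocks by role, with filled points for the 4 genes past the limma threshold and a dotted line at the median of the 32 genes, -0.44. Estimates run from -0.94 for Kif20a to 0.29 for Nuf2, and the widest error bars belong to genes that are low in wild-type library 1.

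The promoters of these genes are shown because shared elements near the start site are a known feature of mitosis genes. The cell cycle genes homology region (CHR, searched as TTTGAA) is bound by the DREAM complex in resting cells and by complexes with MYBL2 and FoxM1 in dividing cells, and CCAAT boxes are bound by NF-Y. Windows from 250 bases before to 50 bases after the annotated start were taken from RefSeq (GRCm38.p6), which held 26 of the 32 genes. Both motifs were searched on both strands, and overlapping matches were allowed. TTTGAA was found in 19 of the 26 genes (73.1%), against 20.2% of 27025 genes with a window and 14.2% of the tested genes among them. CCAAT was found in 20 of the 26 (76.9%), against 41.1% and 44.0%. Both were found in 17 of the 26 (65.4%), against 7.97% and 5.97%. A CHR variant, TTCGAA, was searched as well and counted apart. It was found in 3 of the 26 (11.5%), against 1.8% and 2.56%, and 1 of the 3 was Bub1, which had no TTTGAA. The 120 bases before the start are given for 3 genes that fell, for Kif11 and for Cdk1, in lower case 5′ to 3′ on the strand of the gene. Ccna2, which also fell, had no window and is left out of all motif counts and medians. Capitals mark TTTGAA and CCAAT, which read TTCAAA and ATTGG where they lie on the opposite strand.
Ccnb2, chr9:70421555-70421674, minus strand: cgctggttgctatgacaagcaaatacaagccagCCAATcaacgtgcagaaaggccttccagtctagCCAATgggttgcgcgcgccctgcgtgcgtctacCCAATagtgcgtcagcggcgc
Cenpe, chr3:135212443-135212562, plus strand: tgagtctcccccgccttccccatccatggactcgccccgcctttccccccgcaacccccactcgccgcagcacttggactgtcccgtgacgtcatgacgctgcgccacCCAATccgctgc
Nusap1, chr2:119618178-119618297, plus strand: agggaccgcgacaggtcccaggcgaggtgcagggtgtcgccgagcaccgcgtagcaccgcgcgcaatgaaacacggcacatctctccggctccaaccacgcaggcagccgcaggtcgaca
Kif11, chr19:37376262-37376381, plus strand: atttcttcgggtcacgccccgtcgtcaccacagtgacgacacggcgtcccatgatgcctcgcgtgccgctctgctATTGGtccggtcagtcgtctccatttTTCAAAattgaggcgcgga
Cdk1, chr10:69352913-69353032, minus strand: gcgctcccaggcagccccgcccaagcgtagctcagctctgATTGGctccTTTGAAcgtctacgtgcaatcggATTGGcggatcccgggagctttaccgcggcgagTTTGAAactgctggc
Ccnb2 had CCAAT 87, 54 and 21 bases before the start, and its TTTGAA motifs, 167 bases before and 5 bases after the start, lie outside the stretch shown. Cdk1 had TTTGAA 71 and 15 bases and Kif11 19 bases before the start, counted to the first base of each motif. Cenpe had CCAAT alone, 12 bases before the start, and the Nusap1 window held neither motif. The median log2 change was -0.44 for the 19 genes with TTTGAA and -0.52 for the 7 without it. The 20 genes with CCAAT had a median of -0.47 and the 6 without it one of -0.15. These medians are descriptions with no test.

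Among the cyclins and their kinase, both cyclin genes that passed the test were lower by about the same amount. Ccna2, which encodes cyclin A2, the partner of Cdk1 and Cdk2 from S phase to early mitosis, had 632.4, 773.5 and 737.2 normalized counts under the wild-type label and 400.1, 465.8 and 417.7 under the knock-out label. The highest knock-out library lay well under the lowest wild-type library (log2 change -0.74, SE 0.14, limma adjusted p = 0.0248). Ccnb2, one of the B cyclins that switch Cdk1 on at mitotic entry, went from 393.6, 436.7 and 418.6 to 278.8, 250.1 and 236.1 (log2 change -0.71, SE 0.13, limma adjusted p = 0.0249). Ccnb1, the B cyclin needed for mitosis in the mouse embryo, had 377.6, 566.9 and 655.5 against 344.0, 356.7 and 288.3. Its groups did not overlap, but wild-type library 1 came near the knock-out values and the gene did not pass (log2 change -0.66, SE 0.23, limma adjusted p = 0.143). Pseudogenes of Ccnb1 and Ccnb2 are annotated in the mouse, so how their reads were assigned is uncertain.

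Cdk1 itself, the kinase of mitotic entry, did not pass. It had 238.8, 1076 and 1139 normalized counts under the wild-type label and 721.5, 1023 and 519.7 under the knock-out label. Wild-type library 1 was the lowest of all 6, and the log2 change was 0.13 (SE 0.61, limma adjusted p = 0.935). The sign turned to -0.61 without wild-type library 1 (limma adjusted p = 0.118) and -0.12 without knock-out library 2, and it was negative in edgeR and DESeq2. Foxm1, the transcription factor that drives many late cell cycle genes, had 354.9, 267.9 and 303.3 against 306.9, 275.9 and 351.2. The groups overlapped fully (log2 change 0.01, SE 0.17), and the sign of Foxm1 turned when either wild-type library 2 or knock-out library 3 was left out.

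The kinases of spindle assembly all had negative estimates, with 0 of 3 past the test. Aurka, which matures centrosomes and nucleates spindle microtubules, had 205.5, 219.2 and 226.1 normalized counts under the wild-type label and 158.4, 174.5 and 149.5 under the knock-out label. The groups were apart (log2 change -0.43, SE 0.14, limma adjusted p = 0.126). Ttk, the kinase that starts checkpoint signalling at kinetochores, had 369.6, 268.7 and 233.3 against 191.9, 178.8 and 197.0. The groups were again apart, with wild-type library 1 the highest (log2 change -0.59, SE 0.20, limma adjusted p = 0.134). Plk1, the Polo kinase, had 853.9, 681.9 and 614.7 against 586.6, 449.5 and 676.4, which overlap (log2 change -0.33, SE 0.20).

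The checkpoint genes Bub1, Bub1b and Mad2l1, whose products delay anaphase, shared the low value of wild-type library 1. Bub1 had 72.0, 225.9 and 243.3 normalized counts under the wild-type label and 80.6, 165.9 and 77.1 under the knock-out label. Wild-type library 1 lay under all 3 knock-out libraries, and the SE of 0.53 was nearly as large as the log2 change of -0.64. Bub1b (log2 change -0.44, SE 0.49) and Mad2l1 (log2 change -0.16, SE 0.35) had the same pattern over the libraries. For Mad2l1 the sign turned without wild-type library 2 or 3. Ube2c, the ubiquitin-conjugating enzyme of the anaphase-promoting complex, had 281.5, 624.0 and 515.7 against 247.1, 332.6 and 227.8. All knock-out values were under wild-type libraries 2 and 3, and 1 of them was above wild-type library 1 (log2 change -0.76, SE 0.31, limma adjusted p = 0.216). Cdc20, which activates that complex, had 539.0, 479.5 and 443.1 against 561.2, 434.0 and 562.4 (log2 change 0.09, SE 0.16), with overlap.

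The chromosomal passenger complex, which corrects faulty attachments and then guides cleavage, had a median log2 change of -0.03, the nearest to 0 of the 8 role groups. The summed level of its 4 genes was 1961.9 ± 285.5 normalized counts under the wild-type label and 1869.2 ± 135.6 under the knock-out label (95.3% of wild type, SD, n = 3 each), a difference within the spread of the libraries. Birc5, which encodes survivin, had 1093, 893.6 and 829.9 against 848.2, 721.1 and 981.3 (log2 change -0.14, SE 0.17). Cdca8, which encodes borealin, had 450.9, 347.7 and 345.9 against 422.7, 393.6 and 415.3 (log2 change 0.12, SE 0.15). Incenp, the scaffold, was high in wild-type library 1 (672.4 against 360.3 and 355.0) and had 460.8, 399.6 and 506.7 under the knock-out label. Aurkb, the kinase of the complex, was the opposite, at 68.0 in wild-type library 1, 259.5 and 209.7 in wild-type libraries 2 and 3, and 117.7, 230.3 and 110.4 under the knock-out label. The log2 changes of Incenp and Aurkb were 0.04 (SE 0.27) and -0.10 (SE 0.54), and both signs turned when single libraries other than wild-type library 1 were left out.

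Cenpe had the smallest p of the 32 genes. It encodes the kinesin that carries chromosomes along microtubules to the spindle equator. It had 840.5, 802.0 and 808.1 normalized counts under the wild-type label and 471.6, 465.0 and 466.3 under the knock-out label, so the libraries of each label nearly coincided. The knock-out mean was 57.2% of the wild-type mean (467.6 ± 3.5 against 816.9 ± 20.7, SD, n = 3 each, log2 change -0.80, SE 0.11, limma adjusted p = 0.00802). Cenpf, a large protein of the outer kinetochore, had 1027, 749.1 and 872.5 against 621.9, 638.6 and 628.9. Its groups were apart, yet the wild-type libraries were spread and it did not pass (log2 change -0.47, SE 0.15, limma adjusted p = 0.113). Cenpa, the histone H3 variant of centromeres, had 188.1, 588.7 and 621.0 against 268.9, 408.2 and 231.4 (log2 change -0.48, SE 0.48). Ndc80 and Nuf2, partners in the complex that binds microtubule ends, differed in sign. Ndc80 had 289.5, 253.6 and 267.8 against 248.0, 220.9 and 269.4 (log2 change -0.14, SE 0.14). Nuf2 had 240.1, 147.8 and 165.2 against 237.2, 174.5 and 259.9 (log2 change 0.29, SE 0.24), and neither passed.

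**Figure D3:**
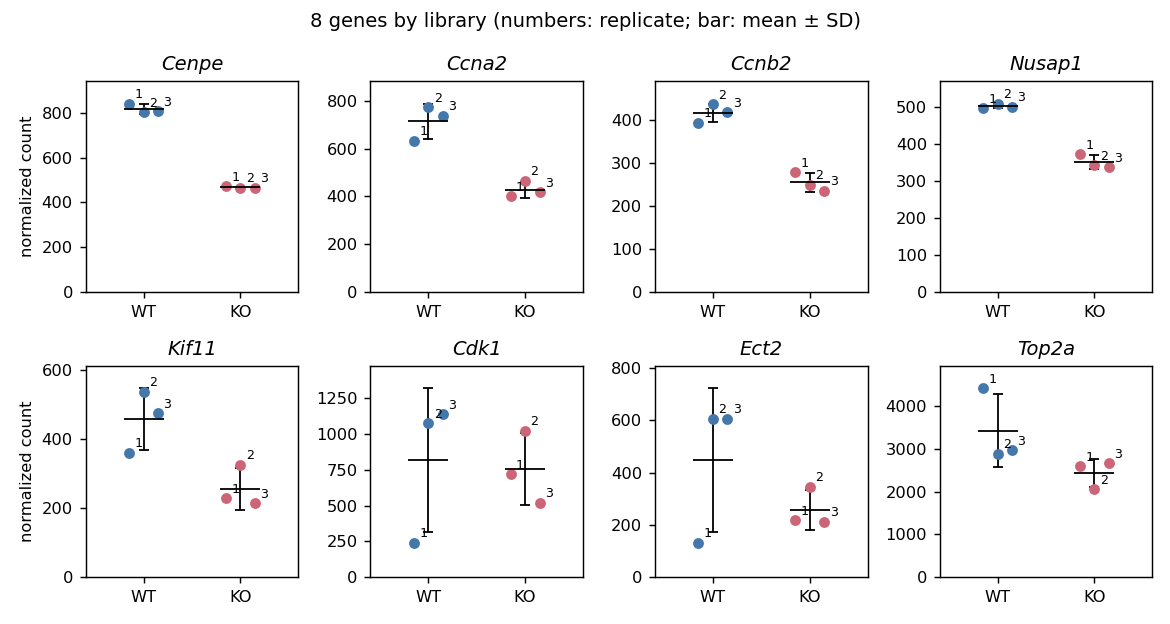
Normalized counts of 8 genes in each library (points, numbered by replicate, with mean ± SD in black). The 4 genes past the limma test, in the upper row, have groups well apart, those of Kif11 and Top2a are apart by less, and for Cdk1 and Ect2 wild-type library 1 is the lowest of the 6 libraries.

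All 4 genes for spindle motors and microtubule binders had negative estimates, and their summed level was the lowest of the 8 role groups relative to wild type. It was 64.5% of wild type (1317.6 ± 77.5 against 2041.5 ± 236.7 normalized counts, SD, n = 3 each). Nusap1, which bundles spindle microtubules near chromosomes, had 497.6, 509.8 and 502.1 against 373.9, 343.8 and 338.2. It fell with little spread in either group (log2 change -0.52, SE 0.12, limma adjusted p = 0.0493). Kif11, the motor that pushes the spindle poles apart, had 360.2, 536.6 and 474.9 against 228.1, 324.9 and 213.6. Its estimate was larger, but so was its spread (log2 change -0.84, SE 0.23, limma adjusted p = 0.0785), and it passed in DESeq2 (where 3.28% of tested genes were called lower). Kif20a, a motor of the central spindle, had 257.5, 671.0 and 548.4 against 201.9, 290.5 and 225.5 (log2 change -0.94, SE 0.36, limma adjusted p = 0.183). The estimate of Kif20a was the most negative of the 32, although wild-type library 1 lay under knock-out library 2. Tpx2, which activates Aurora A on the spindle, had 667.1, 529.1 and 570.2 against 486.1, 446.1 and 480.6, apart but not past the test (log2 change -0.32, SE 0.14, limma adjusted p = 0.232).

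None of the 4 cytokinesis genes passed limma, edgeR or DESeq2, and 0 of them had an unadjusted limma p under 0.05. Ect2, the exchange factor that switches on RhoA at the cleavage furrow, had 130.7, 606.3 and 606.5 normalized counts under the wild-type label and 216.3, 345.5 and 211.2 under the knock-out label. Wild-type library 1 was the lowest of all, and the SE of 0.60 exceeded the log2 change of -0.53. Anln, which encodes the ring scaffold anillin, had 132.1, 427.5 and 408.6 against 187.4, 342.1 and 134.1 (log2 change -0.47, SE 0.53). Prc1, which crosslinks the midzone, had 515.0, 550.9 and 552.9 against 541.3, 444.3 and 491.3 (log2 change -0.14, SE 0.13). Kif23, a motor of the same midzone, had 285.5, 383.0 and 437.6 against 421.8, 360.1 and 415.3 (log2 change 0.13, SE 0.19), and its sign turned without wild-type library 1.

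The widely used proliferation markers Top2a and Mki67 did not pass. Top2a, which encodes the topoisomerase that untangles sister chromatids, had 4419, 2886 and 2976 normalized counts under the wild-type label and 2596, 2050 and 2659 under the knock-out label. The groups were apart (log2 change -0.47, SE 0.20, limma adjusted p = 0.228). Mki67, which encodes the Ki-67 protein of the mitotic chromosome surface, had 733.8, 438.4 and 519.3 against 549.5, 480.4 and 557.7. All knock-out libraries lay inside the wild-type range (log2 change -0.06, SE 0.21), and the sign turned when either wild-type library 1 or knock-out library 2 was left out.

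The calls were sensitive to which libraries were kept. Leaving out a library also leaves fewer to test, so a lost call alone does not show dependence on that library. Without knock-out library 1 or 3, 0 of the 32 genes passed limma, and 0.512% and 0.607% of tested genes were called lower. Without wild-type library 2, wild-type library 3 or knock-out library 2, Cenpe alone passed, where 0.702%, 0.645% and 0.987% of tested genes were called lower. Across those 5 comparisons Ccna2, Ccnb2 and Nusap1 reached adjusted p values of up to 0.151, 0.134 and 0.214. Over the 17 alternative settings the log2 change ran over -0.82 to -0.76 for Cenpe and -0.88 to -0.68 for Ccna2. It ran over -0.77 to -0.65 for Ccnb2 and -0.56 to -0.46 for Nusap1. Without wild-type library 1, 13 genes passed, all of them lower, when 9.02% of tested genes were called lower. With wild-type library 1 and knock-out library 2 both left out, 23 passed, 19 lower and 4 higher (Cdc20, Cdca8, Incenp and Nuf2). In that comparison 27.7% of tested genes were called lower and 25.8% higher, and the libraries left are the pairs with r = 0.984 and 0.981. Knock-out libraries 1 and 3 against wild-type library 1 gave a median log2 change of -0.25 for the 32 genes. Knock-out library 2 against wild-type libraries 2 and 3 gave one of -0.34. Knock-out library 2 was nonetheless closer to its own group (r = 0.946 and 0.924) than to those wild-type libraries (0.901 and 0.903). Over the 9929 genes these medians were 0.02 and -0.02. The change was negative in both comparisons for 17 of the 32 genes (53.1%), against 34.7% of the 9929, and positive in both for Nuf2 alone (3.12%, against 33.8%).

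Base composition moved with the library differences. Across the 32 genes, the difference of wild-type library 1 from the other wild-type libraries was more negative where the last 300 bases of the transcript held less G and C (Pearson r = 0.47, Spearman rho = 0.49, n = 32 genes measured in the same libraries). The 10 genes low in wild-type library 1 had a median of 35.2% G and C there, and the other 22 one of 40.8%. Knock-out library 2 showed the reverse against knock-out libraries 1 and 3 (r = -0.51, rho = -0.48). Over the 9929 genes r was 0.33 and -0.34. The part of base composition in the differences between the labels was not tested.

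**Figure D4:**
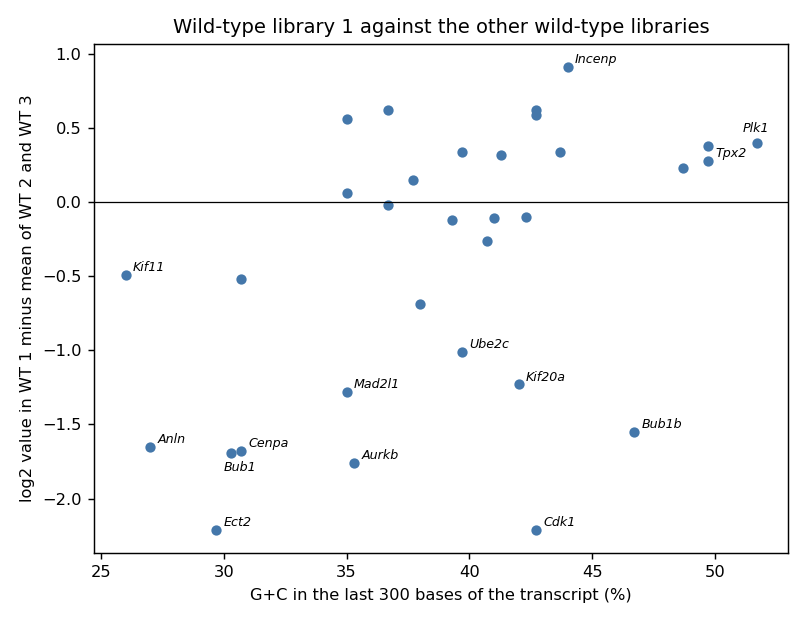
Each point is 1 of the 32 genes, with the G and C content of the last 300 bases of its annotated transcript on the x axis (percent) and its log2 value in wild-type library 1 minus the mean of wild-type libraries 2 and 3 on the y axis. Genes far below 0, such as Ect2, Anln and Cenpa, mostly lie at low G and C content, with Cdk1, Bub1b and Kif20a as exceptions (r = 0.47).

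Related genes were taken from 8 lists of cell cycle genes. In 3 lists of mitosis genes outside the 32, 2 of 80 tested genes fell and 0 rose (2.50%, against 2.25% of all tested genes). In 60 of the 80 (75%, against 51.1% of all tested genes) the log2 change was negative. The median was -0.26, against -0.01 over all tested genes. Pttg1, which encodes securin, the inhibitor of separase, had 1143, 621.5 and 624.7 normalized counts under the wild-type label and 223.6, 154.7 and 276.5 under the knock-out label (log2 change -1.84, SE 0.31, limma adjusted p = 0.0176). Its groups were far apart, but the call was lost without any 1 knock-out library (adjusted p up to 0.0911). Kif20b, a motor of cytokinesis, fell from 891.2, 705.4 and 659.2 to 476.1, 409.1 and 462.8 (log2 change -0.73, SE 0.16, limma adjusted p = 0.04). Among 35 other kinetochore and centromere genes 0 passed limma, edgeR or DESeq2. An unadjusted limma p under 0.05 was reached by 7 (20%, against 22.6% of all tested genes). The smallest p values there belonged to Ska1, a microtubule binder at kinetochores (log2 change 0.70, SE 0.19, limma adjusted p = 0.08), and Sgo2a, a protector of cohesin (log2 change -0.81, SE 0.24, limma adjusted p = 0.1).

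Of 15 tested genes of condensin, cohesin control and chromatin of dividing cells, 1 fell (6.67%, against 2.25% of all tested genes) and 0 rose. It was Smc4, a core condensin subunit, at 2536, 3181 and 3341 against 1773, 2088 and 1721 (log2 change -0.69, SE 0.15, limma adjusted p = 0.0434). The calls of Smc4 and Kif20b were lost when any single library but wild-type library 1 was left out (adjusted p up to 0.207 and 0.154).

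The summed level of DNA replication genes differed by less than the spread between libraries. Over 34 genes it was 11175.3 ± 671.1 normalized counts under the wild-type label and 11296.0 ± 261.5 under the knock-out label (101% of wild type, SD, n = 3 each), with a median log2 change of 0.05. None of the 34 passed limma, edgeR or DESeq2. Before adjustment, 6 had a limma p under 0.05 (17.6%, against 22.6% of all tested genes). Cdc45, a helicase cofactor, and Rrm2, a ribonucleotide reductase subunit, had the smallest p values and positive estimates (log2 change 0.59, SE 0.17, and 0.79, SE 0.23, limma adjusted p = 0.0929 and 0.1). Whether the mitosis and replication lists differ from each other was not tested.

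**Figure D5:**
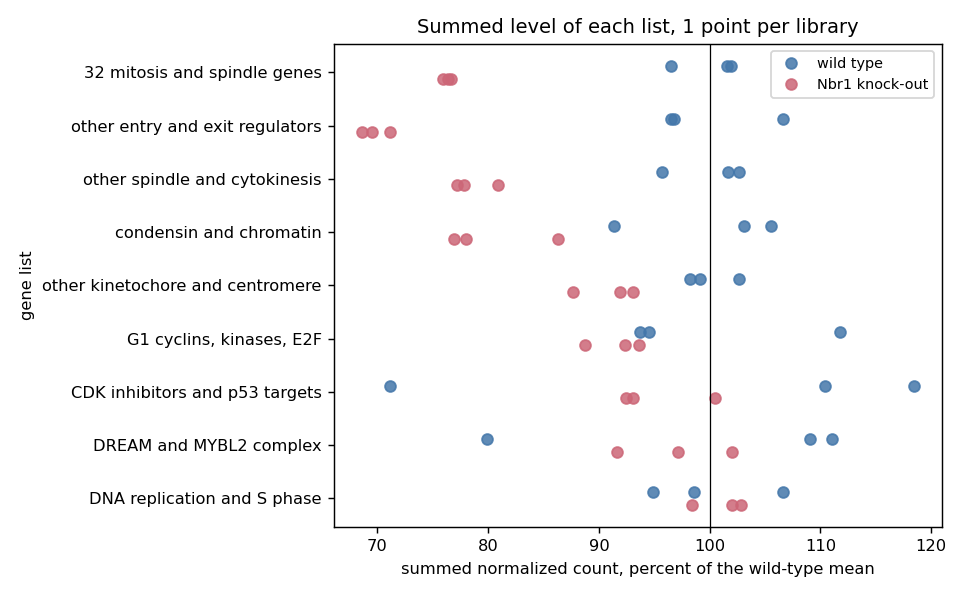
Summed normalized count of each gene list in each library, as a percent of the wild-type mean of that list (x axis, 1 point per library). The 3 knock-out libraries lie under all wild-type libraries for the 32 genes, where their mean is 76.3%, and for the other mitosis and condensin lists. They also do for the G1 list, by a small margin (highest knock-out sum 3671.3, lowest wild-type sum 3677.5). For DNA replication the points of both labels mix around 100.

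In 3 lists of upstream regulators 2 of 42 tested genes passed (4.76%, near the 6.92% of all tested genes called in either direction). Among 15 G1 cyclins, kinases and E2F factors 0 passed limma or edgeR and 1 passed DESeq2, 2 had an unadjusted p under 0.05, and the smallest p values were those of Cdk6 (log2 change -0.65, SE 0.16, limma adjusted p = 0.0644) and E2f3 (log2 change -0.80, SE 0.24, limma adjusted p = 0.1). In the 12 genes of the DREAM and MYBL2 complexes 0 passed limma, edgeR or DESeq2, 1 was under 0.05 before adjustment, and the median log2 change was 0.03, with the smallest p values for Tfdp2 (log2 change -0.29, SE 0.12) and Lin52 (log2 change 0.28, SE 0.19). Of 15 tested CDK inhibitors and p53 targets, 1 rose and 1 fell. Cdkn1c, which encodes the CDK inhibitor p57, went from 9.34, 9.24 and 7.26 to 32.6, 24.1 and 26.1 normalized counts (log2 change 1.57, SE 0.27, limma adjusted p = 0.0176). Btg2, an antiproliferative p53 target, went from 226.8, 186.4 and 174.3 to 100.5, 78.2 and 121.0 (log2 change -0.98, SE 0.21, limma adjusted p = 0.0411). Both calls were lost when any single library but wild-type library 1 was left out (adjusted p up to 0.112 and 0.174). Cdkn1a, which encodes the CDK inhibitor p21 and was picked after its values were seen, had 90.7, 57.1 and 49.9 against 126.7, 98.8 and 142.4. Its groups were apart, and it did not pass (log2 change 0.92, SE 0.27, limma adjusted p = 0.103).

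Markers of cell types also moved with the labels. Of all tested genes 4.67% were called higher and 2.25% lower, the shares to set beside the counts of each marker list. Of 11 tested stellate cell markers 7 rose and 0 fell, and their summed level went from 10242.9 ± 1620.1 to 20036.4 ± 2374.1 normalized counts (SD, n = 3 each). The stellate markers Des, Lrat, Reln and Rgs5 were not among the rows. The mesothelial list summed to 1853.1 to 2156.3 under the wild-type label and 1344.3 to 1611.5 under the knock-out label, with 1 of 7 genes lower and 0 higher. The cholangiocyte and epithelial list summed to 146.1 to 168.1 and 603.3 to 666.9, with 2 of 4 tested genes higher and 1 lower. The transcription factor gene Sox9 made up most of the knock-out sum (10.7, 13.4 and 21.8 against 467.1, 472.7 and 496.0), while Epcam, Krt18 and Cldn4 were not among the rows. Hepatocyte markers summed to at most 54.5, macrophage markers to at most 14.7 and endothelial markers to at most 8.3 in any library. These sums cover only the markers among the rows, 5 of 10, 2 of 11 and 1 of 10 (Kdr). Of the 10 lymphocyte and neutrophil markers 0 were rows. The part of a different mix of cells in the mitosis gene levels was not tested.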

How the data were processed

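Messenger RNA from 6 libraries (3 wild type, 3 Nbr1 knock-out) was read at the 3′ end on 200 ng of RNA with a QuantSeq forward kit and reads of 75 nucleotides, per the labels' protocols. The deposited values are a normalized read count signal: each library's counts were divided by 1 factor, and the submitters' processing notes name DESeq2 and GRCm39. The aligner, annotation, strand setting and use of molecular identifiers are not given in the sources used here. Dividing each library by its lowest value above 0 gave whole numbers for 100% of entries (tolerance 0.01), and these were used as recovered reads. Counts from 3′ ends do not grow with transcript length.

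The main test was limma 3.58.1 (R 4.3.3) with a variance trend on log2(value + 1), two-sided, over the 10540 genes that reached 10 in 3 or more libraries, adjusted by Benjamini-Hochberg over all of them. Every adjusted p comes from it unless another tool is named. Alternatives were pseudocounts of 0.5 and 5, no filter on low values, a minimum mean of 50, TMM normalization, quantile normalization, edgeR 4.0.16 and DESeq2 1.42.0 on the recovered reads, no trend, a replicate block, each library left out, and 2 libraries left out together. Knock-out libraries 1 and 3 were also compared with wild-type library 1, and knock-out library 2 with wild-type libraries 2 and 3. These comparisons were added after seeing the data. No library pair agreed within sampling noise (chi-square over degrees of freedom at least 1.50). The test was also run on simulated counts with a common dispersion and no library set apart from its group. That run therefore does not cover library differences of the kind seen here. Named genes were the 32 members, and from each related list the genes past the test (at most 5) or, where none passed, the 2 with the smallest p. The members, lists and alternatives were chosen with earlier results of these data known. Transcript ends came from GENCODE M21 (GRCm38), used for base composition alone.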

Additional observations from a re-analysis of the deposited data

How the results depend on the processing

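The number of the 32 genes past the test stayed between 3 and 5, all lower, with other pseudocounts, filters, TMM, quantile normalization, edgeR and DESeq2. It was 1 with no variance trend, 1 with the replicate block, 0 to 13 with 1 library left out, and 23 without wild-type library 1 and knock-out library 2. The median log2 change of -0.44 ran from -0.50 to -0.22 with 1 library left out, and was -0.52 without those 2 libraries. It was -0.25 for knock-out libraries 1 and 3 against wild-type library 1, and -0.34 for knock-out library 2 against wild-type libraries 2 and 3. The number of genes with groups apart (11) was 11 to 24 with 1 library left out and 28 without the 2. Over all tested genes that share was 30.1% (34.4% of the 32), 33.3% to 57.7% with 1 library left out, and 77.6% without the 2 (87.5% of the 32). Over all genes the 729 calls became 380 with a mean of at least 50, 476 with the block, 200 to 2228 with 1 library left out and 5646 without the 2. In the related lists, with 171 genes tested, the 5 calls became 3 with quantile normalization, 2 with no trend and 1 with the block. They became 0 to 41 with 1 library left out and 102 without the 2. Of 10540 genes tested over all, 701, 731 and 476 were called in the first 3 of these settings. Where the lists had 41 and 102 calls, all genes had 2228 and 5646.

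Among the fitted alternatives the sign turned for 8 of the 32 genes, none of which passed the main test. Cdk1 (0.13) was -0.11 in edgeR and -0.12 in DESeq2, and Incenp (0.04) was -0.01 and -0.03. With 1 library left out, the log2 change ran over -0.61 to 0.52 for Cdk1, -0.12 to 0.34 for Incenp, -0.08 to 0.12 for Foxm1 and -0.59 to 0.06 for Mad2l1. It ran over -0.69 to 0.27 for Aurkb, -0.25 to -0.03 for Birc5, -0.04 to 0.27 for Kif23 and -0.23 to 0.15 for Mki67. Without the 2 libraries it was -0.85 for Cdk1, 0.43 for Incenp, 0.20 for Foxm1, -0.69 for Mad2l1, -1.03 for Aurkb, 0.08 for Birc5, 0.03 for Kif23 and 0.21 for Mki67. For knock-out libraries 1 and 3 against wild-type library 1 it turned for 10 of the 32. That count leaves out Prc1, which went from -0.14 to a value just above 0 that rounds to 0.0. Of the 10, 6 are not among those 8: Bub1 (0.13), Bub1b (0.29), Cdca8 (-0.11), Cenpa (0.41), Anln (0.26) and Ect2 (0.71). For knock-out library 2 against wild-type libraries 2 and 3 it turned for 5, with Cdc20 (-0.09) not among the 8. The cause was not tested. The labels do not say whether same-numbered libraries form pairs. Their deviations from the group means correlated at 0.446, 0.700 and -0.624. Deviations within a group of 3 depend on each other, so these values cannot decide on pairing. With the replicate block Cenpe alone of the 32 passed.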
